A study of Solanum lycopersicum with 6 samples.

Results

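The ACC synthase and ACC oxidase genes, which encode the enzymes of ethylene biosynthesis, were examined in epicotyls of tomato seedlings grown under negative or positive DIF. DIF is the difference between day and night temperature. The members were a given list of 10 tomato genes, 4 of them ACC synthases and 6 ACC oxidases, and every array probe that is not a control and carries one of their identifiers was taken. Each gene had 1 probe, so 10 of the 43803 probes on the array were examined. The files pair the identifiers with no gene names, and a RefSeq gene table matched 0 of the 10. The genes are therefore called by identifier, and the 2 classes are those of the list. Of the members only Solyc07g049550 is described in the sources used here, as an ACC oxidase.

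Negative DIF seedlings (cultivar Managua RZ) were grown at 25°C by day and 30°C by night for 7 d. Positive DIF seedlings were grown at 30°C by day and 25°C by night for the same time. This is also the study's high temperature treatment, and it is the reference of every comparison here. The study's control temperature is not among these arrays. All seedlings had the same germination and early growth, the same light intensity, a 16 h photoperiod and an age of 14 d. The epicotyl, the stem above the cotyledons, was taken within the light period. Negative DIF seedlings were thus at 25°C and positive DIF seedlings at 30°C when collected, so the temperature at harvest and the daily course of temperature cannot be told apart. Each treatment had 3 arrays, described as biological replicates, each hybridized with 1 dye-labeled sample.

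Ethylene is a gaseous hormone made from methionine. Methionine is first activated to S-adenosylmethionine, ACC synthase then forms the precursor ACC (aminocyclopropane carboxylic acid), and ACC oxidase converts ACC to ethylene. ACC synthase is often the limiting step, and both enzymes are encoded by small gene families whose members are expressed in different organs and under different stresses. In tomato the pathway is best known from fruit ripening, and in shoots of many plants ethylene restrains elongation and favors radial growth.

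Each negative DIF array had 27230 to 29341 spots well above background, and each positive DIF array 27415 to 28651. Negative DIF replicates 1 and 2 were on 1 slide, and negative DIF replicate 3 was on a second slide with all 3 positive DIF arrays. Slide and treatment therefore overlapped in part. No gene marks an epicotyl alone, so the tissue was checked with short lists assigned from general knowledge. Both genes listed as Rubisco small subunits, which belong to green tissue, and both genes listed as KNOX genes, which are active in shoot meristems and young stems, were detected on all 6 arrays. Of 5 genes listed for ripening fruit, Solyc10g080210 was detected on no array, Solyc10g006880 on 2 negative DIF and all 3 positive DIF arrays, and the other 3 on every array, with adjusted p between 0.415 and 0.978 in limma. The fruit list therefore gave no check of the tissue. Since 25327 of the 43803 probes were detected on all 6 arrays, detection of the Rubisco and KNOX probes is no specific check either.

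Of the member genes, 6 gave a signal and the others did not. A probe is called detected here when the scanner software marked its spot as well above background. Among the ACC synthases, 2 of 4 probes were detected on all 6 arrays, Solyc08g008100 and Solyc08g081540. Among the ACC oxidases, 4 of 6 were detected on all 6 arrays, namely Solyc07g049550, Solyc09g089580, Solyc12g005940 and Solyc02g036350. No member was detected on only some of the arrays.

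The ACC synthases Solyc01g095080 and Solyc05g050010 and the ACC oxidases Solyc07g049530 and Solyc07g026650 were not well above background on any array. Their processed signals lay between 3.38 and 14.2, and the lowest signal marked as well above background on an array was between 12.2 and 22.4. Relative to this limit on the same array they reached at most 0.767 times, on the negative DIF replicate 1 array for Solyc07g026650. They have only an upper bound in both treatments, so no fold change is given for them. The identifiers of Solyc07g049530 and Solyc07g049550 are close together in the numbering of chromosome 7, and the second was among the detected genes.

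**Figure D1:**
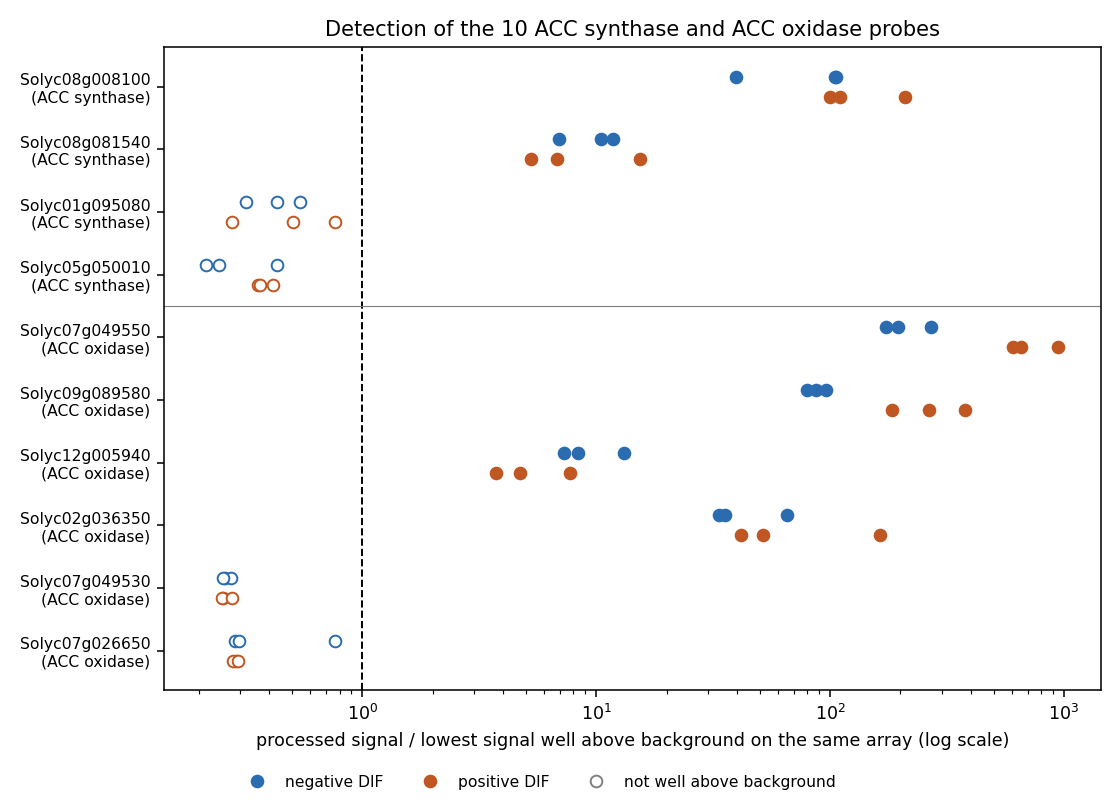
Processed signal of each of the 10 probes divided by the lowest signal well above background on the same array, on a log axis, with 3 negative DIF arrays (upper, blue) and 3 positive DIF arrays (lower, orange) per gene. The dashed line is a ratio of 1, open points are spots not well above background, and 4 genes lie left of the line on all 6 arrays, none of them above 0.767.

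In the comparison of negative with positive DIF, 1 member fell past an adjusted p of 0.05 and none rose past it. The ACC oxidase Solyc07g049550 was 3.29-fold lower under negative DIF. Before adjustment limma put 2 members past 0.05 as lower, Solyc07g049550 and Solyc09g089580, and 1 as higher, Solyc12g005940, all from the list's ACC oxidases. Neither detected ACC synthase passed. Values are log2 processed signals relative to the 75th percentile of each array, and the test was limma over all 43803 probes with Benjamini-Hochberg adjustment. Of all probes, 0.495% were lower and 0.425% higher at the adjusted threshold, and 8.72% were lower and 10.2% higher at the unadjusted one. Of the 25327 probes detected on all 6 arrays, 11.6% were lower and 12.8% higher unadjusted. In either direction this was 24.5%, against which the members' 3 unadjusted calls among 6 detected probes are to be read. The treatments did not overlap in the same 3 of the 6, beside 35.7% of these 25327 probes. Nothing particular to the family is drawn from either count. The median log2 fold change of the 6 detected members was -0.69, and that of the 25327 probes was 0.03.

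Solyc07g049550 encodes an ACC oxidase, the enzyme of the last step to ethylene. Processed signals of this gene were 5009, 3869 and 3604 on the negative DIF arrays, against 10056, 10064 and 11536 on the positive DIF arrays. Every negative DIF array lay far below every positive DIF array, and the arrays of a treatment were close together. On the log2 scale relative to the 75th percentile the level was 1.09 ± 0.09 under negative DIF and 2.81 ± 0.14 under positive DIF (SD, n = 3 arrays each). The log2 fold change was -1.72 (standard error 0.17, 95% interval -2.14 to -1.30), with an adjusted p of 0.0283 in limma (unadjusted p 4.8e-05). Of the 25327 detected probes, 1.61% had a lower log2 fold change. With slide as a fixed block, only negative DIF replicate 3 and the positive DIF arrays of its slide inform the difference, which was then -1.61, with an adjusted p of 0.275 in limma (unadjusted p 0.0016). The size thus moved little while the adjusted call was lost, and it was also lost on leaving out any 1 array other than negative DIF replicate 3, with adjusted p between 0.0606 and 0.143 from limma.

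Solyc09g089580 is listed as an ACC oxidase, but no source used here settles whether it encodes that enzyme or a related dioxygenase. It had the next lowest log2 fold change of the detected members and passed only before adjustment. Processed signals of this gene were 1773, 1782 and 1617 on the negative DIF arrays, against 2843, 6240 and 3220 on the positive DIF arrays. The treatments did not overlap, and positive DIF replicate 2 stood above the other positive DIF arrays. The level was -0.17 ± 0.25 under negative DIF and 1.36 ± 0.57 under positive DIF (SD, n = 3 each, log2 relative to the 75th percentile). The log2 fold change was -1.52 (standard error 0.33, 95% interval -2.32 to -0.73), with an adjusted p of 0.0874 in limma (unadjusted p 0.0031), which missed the adjusted threshold. Without positive DIF replicate 2 the log2 fold change was -1.20, and the fixed block for slide gave -1.32 with an unadjusted p from limma of 0.0405.

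Solyc12g005940, also listed as an ACC oxidase, had the highest log2 fold change of the detected members and likewise passed only before adjustment. Processed signals of this gene were 244, 164 and 156 on the negative DIF arrays, against 119, 62.2 and 57.4 on the positive DIF arrays. All negative DIF arrays were above all positive DIF arrays, but positive DIF replicate 1 came close to them. On the log2 scale the level was -3.39 ± 0.12 under negative DIF and -4.32 ± 0.59 under positive DIF (SD, n = 3 each, relative to the 75th percentile). The log2 fold change was 0.93 (standard error 0.32, 95% interval 0.15 to 1.70), with an adjusted p of 0.198 in limma (unadjusted p 0.0261). The unadjusted call was lost in 7 of 15 alternative fits, among them slide as a fixed block, which gave 0.98 on the log2 scale with an unadjusted p of 0.0997 in limma. It was also lost without negative DIF replicate 1, negative DIF replicate 3, positive DIF replicate 2 or positive DIF replicate 3.

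**Figure D2:**
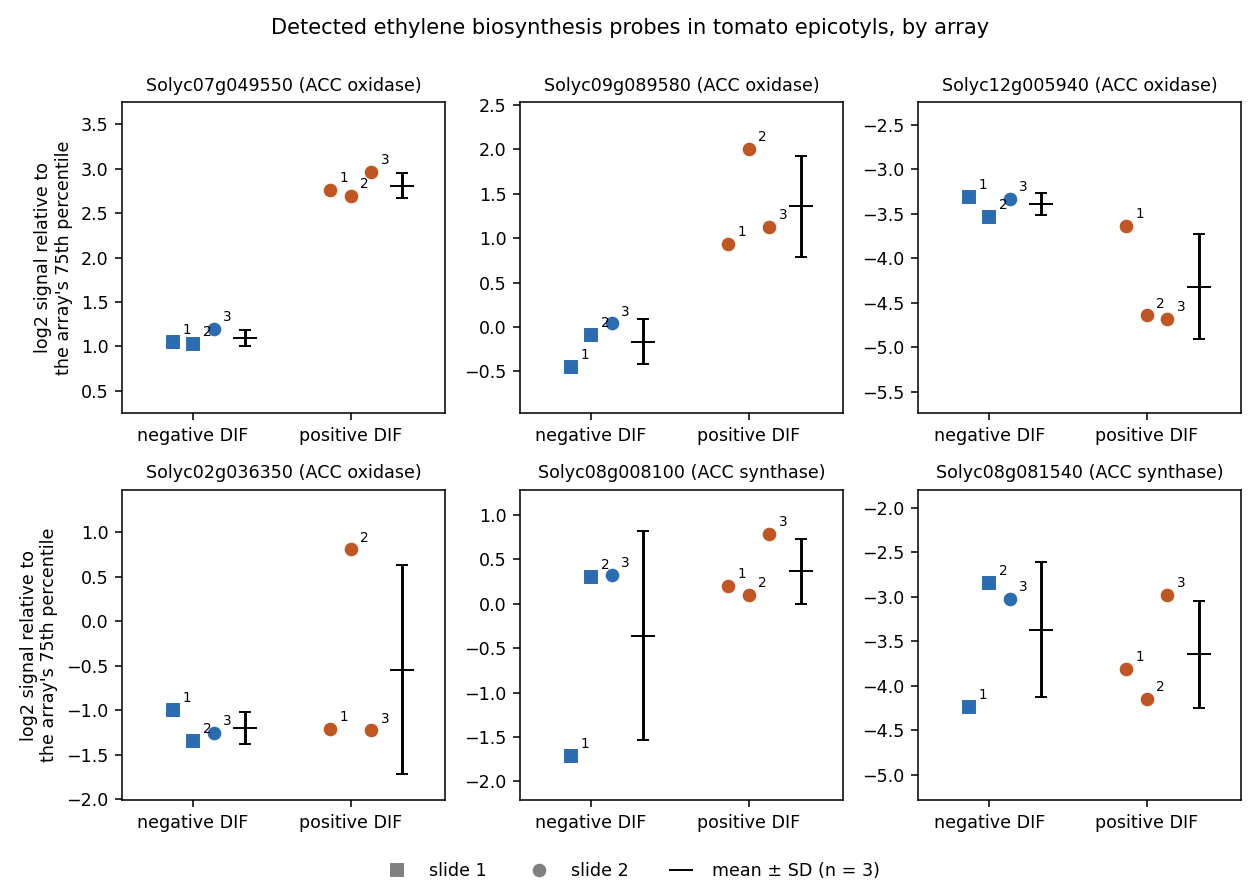
Log2 processed signal relative to the 75th percentile of the array for the 6 detected probes, each panel spanning the same range, with 3 negative DIF arrays (blue) left of 3 positive DIF arrays (orange), replicate numbers beside the points, squares for slide 1 and circles for slide 2, and the mean ± SD. Solyc07g049550 and Solyc09g089580 were lower and Solyc12g005940 higher on every negative DIF array than on any positive DIF array, and in the other 3 genes the treatments overlapped.

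A ratio of a pair of probes within an array does not depend on the scaling between arrays, and shows unequal change but not which gene moved. The log2 ratio of Solyc12g005940 to Solyc07g049550, set to a mean of 0 over the positive DIF arrays, was 2.77, 2.57 and 2.60 on the negative DIF arrays, against 0.73, -0.21 and -0.52 on the positive DIF arrays. The difference in this log2 ratio was 2.65 and the treatments did not overlap. For Solyc09g089580 to Solyc07g049550 the ratio overlapped between treatments, with a difference of 0.19 on the log2 scale. These pairs were picked after the values were seen, and since 0.1 is the smallest two-sided p that permuting 3 and 3 arrays allows, they stand as a description.

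The fourth detected ACC oxidase, Solyc02g036350, did not differ beyond its replicates. Processed signals of this gene were 1211, 747 and 657 on the negative DIF arrays, against 638, 2724 and 629 on the positive DIF arrays. A single array, positive DIF replicate 2, was high, and the remaining arrays of both treatments lay within a narrow band. The log2 fold change was -0.66 (95% interval -2.04 to 0.72, adjusted p = 0.626 from limma), and without that array it was 0.02. Positive DIF replicate 2 exceeded the mean of the other 2 positive DIF arrays by 2.03 for Solyc02g036350 and by 0.97 for Solyc09g089580 on the log2 scale. For Solyc07g049550 it was lower than that mean by a log2 difference of -0.17.

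The ACC synthases, which form ACC, gave no call in either direction. Processed signals of Solyc08g008100 were 736, 2349 and 1974 on the negative DIF arrays, against 1706, 1666 and 2542 on the positive DIF arrays. Only negative DIF replicate 1 was apart from the rest. The log2 fold change was -0.72 (95% interval -2.15 to 0.70, adjusted p = 0.596 from limma), it was -0.05 without negative DIF replicate 1 and -0.03 with slide as a fixed block. The intervals are wide and do not show that the treatments were alike.

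Processed signals of Solyc08g081540 were 128, 264 and 194 on the negative DIF arrays, against 105, 87.4 and 188 on the positive DIF arrays. The treatments overlapped, and negative DIF replicate 1 was again the lowest of its treatment relative to the 75th percentile. Its log2 fold change was 0.28 (95% interval -0.87 to 1.43, adjusted p = 0.867 from limma). Without negative DIF replicate 1 it was 0.71, with an unadjusted p from limma of 0.124. Neither ACC synthase therefore had a change that was separable from its replicate spread.

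Negative DIF replicate 1 was the lowest negative DIF array for most of the detected ACC synthase probes. Of the members and 5 further genes listed as ACC synthases, 8 probes of 7 genes were detected on at least 1 array, 2 of these probes on only some arrays. This array was the lowest of the 3 negative DIF arrays for 7 of the 8. The share over all detected probes is not given here, so nothing particular to the ACC synthases is drawn from this count. Solyc08g008100 differed from the mean of the other 2 negative DIF arrays by -2.03 on the log2 scale and Solyc08g081540 by -1.31. The same difference was -2.46 for Solyc03g043890 and -2.51 and -2.43 for the pair of probes of Solyc08g008110. Over all 8 probes it ran from -3.07 to -0.14. Both ends belong to the 2 probes detected on only some arrays and rest in part on spots not well above background. For the 6 detected ACC oxidase probes, members and others, this array was the lowest in 2. This array also had the largest number of spots well above background, 29341, and the highest 75th percentile of processed signal, 2417. The part of these features in the result was not tested.

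**Figure D3:**
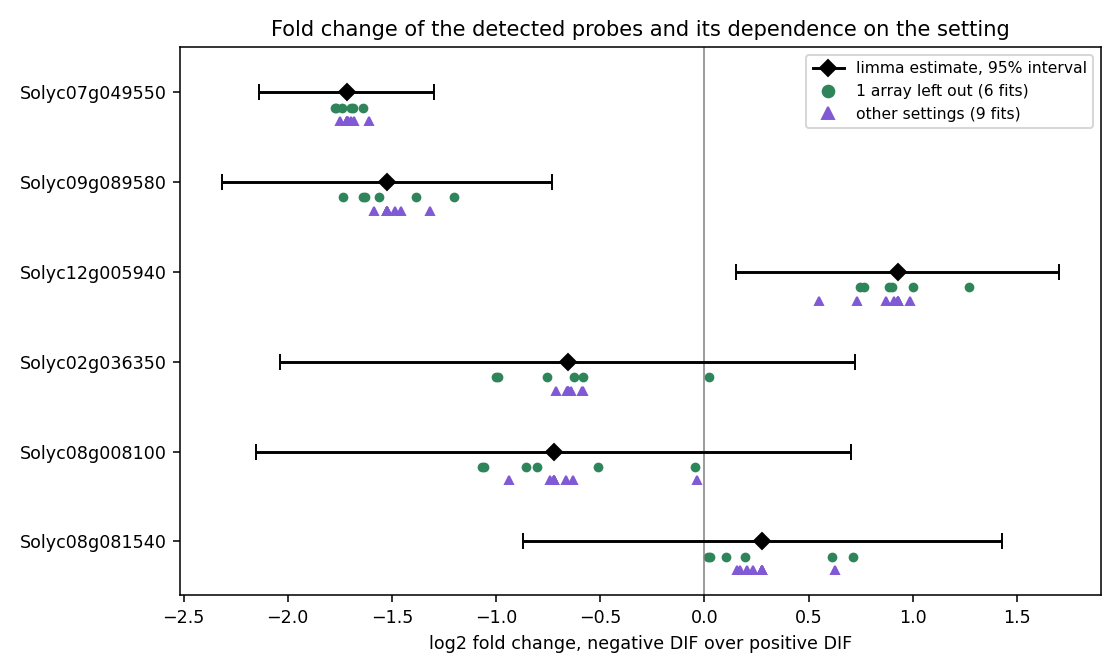
Log2 fold change of the 6 detected probes, negative DIF over positive DIF, from limma with its 95% interval (diamonds), from 6 fits that each leave out 1 array (circles) and from 9 fits with another setting (triangles). For Solyc07g049550 and Solyc09g089580 all fits lie between -1.77 and -1.20, whereas Solyc02g036350 reaches 0.02 without positive DIF replicate 2 and Solyc08g008100 reaches -0.03 with slide as a fixed block.

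The rest of the pathway was read from a list of 17 further genes, assigned to their classes from general knowledge of the tomato genome. They had 19 probes, of which 17 were detected on all 6 arrays. With limma's unadjusted p, 1 of these 17 probes passed 0.05 as lower and 0 as higher, beside 11.6% lower and 12.8% higher among the 25327 detected probes. At the unadjusted threshold the list therefore held no larger share of calls than the array. The same probe was the single one past the adjusted threshold, where 0.495% of all 43803 probes were lower. Nothing about the list is drawn from a single call. Their median log2 fold change was -0.14, beside 0.03 over the 25327 detected probes.

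The probe that passed belongs to Solyc01g101060, an S-adenosylmethionine synthetase, which makes the substrate of ACC synthase. Processed signals of this gene were 3149, 2863 and 2318 on the negative DIF arrays, against 7465, 7719 and 5447 on the positive DIF arrays. The treatments were well apart. The log2 fold change was -1.67 with a standard error of 0.20 and an adjusted p of 0.0356 in limma, -1.62 with slide as a fixed block at an adjusted p of 0.341, and between -1.81 and -1.59 with each array left out, where the adjusted p from limma lay between 0.0548 and 0.146. The adjusted call was therefore lost without any 1 array. The gene is named in the study's own list of lower genes from these arrays, as is Solyc07g049550, so their direction is not independent evidence. The other 3 S-adenosylmethionine synthetase genes had 4 probes with log2 fold changes between -0.21 and 0.05 and adjusted p between 0.654 and 0.925 in limma. Processed signals of these 4 probes were between 13905 and 101178, above the 2318 to 7719 of Solyc01g101060.

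Among the 4 detected probes of the further ACC synthases the log2 fold change ran from -0.99 to 1.53 with adjusted p between 0.399 and 0.734 in limma. The 2 further ACC oxidases had log2 fold changes of 0.37 for Solyc02g081190 and -0.69 for Solyc06g060070, neither past the unadjusted threshold. Processed signals of Solyc02g081190 were 41397 to 91892, above the 3604 to 11536 of Solyc07g049550. Every negative DIF array was above every positive DIF array for Solyc02g081190, beside 35.7% of the 25327 detected probes not overlapping in either direction. All 6 genes listed as ethylene receptors, which bind the hormone, were detected on every array. None of them passed, with log2 fold changes between -0.16 and 0.59 and adjusted p between 0.548 and 0.966 in limma. Over the members and these lists, the adjusted calls were those of Solyc07g049550 at the last step and Solyc01g101060 at the first. At each of these steps a gene with higher signals passed neither threshold, so the calls do not describe the step. Both calls were lost with slide as a fixed block and with the replicate number as a block. In the latter, adjusted p in limma was 0.0763 for Solyc07g049550 and 0.0886 for Solyc01g101060. At the unadjusted threshold Solyc09g089580 and Solyc12g005940 passed as well.

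**Figure D4:**
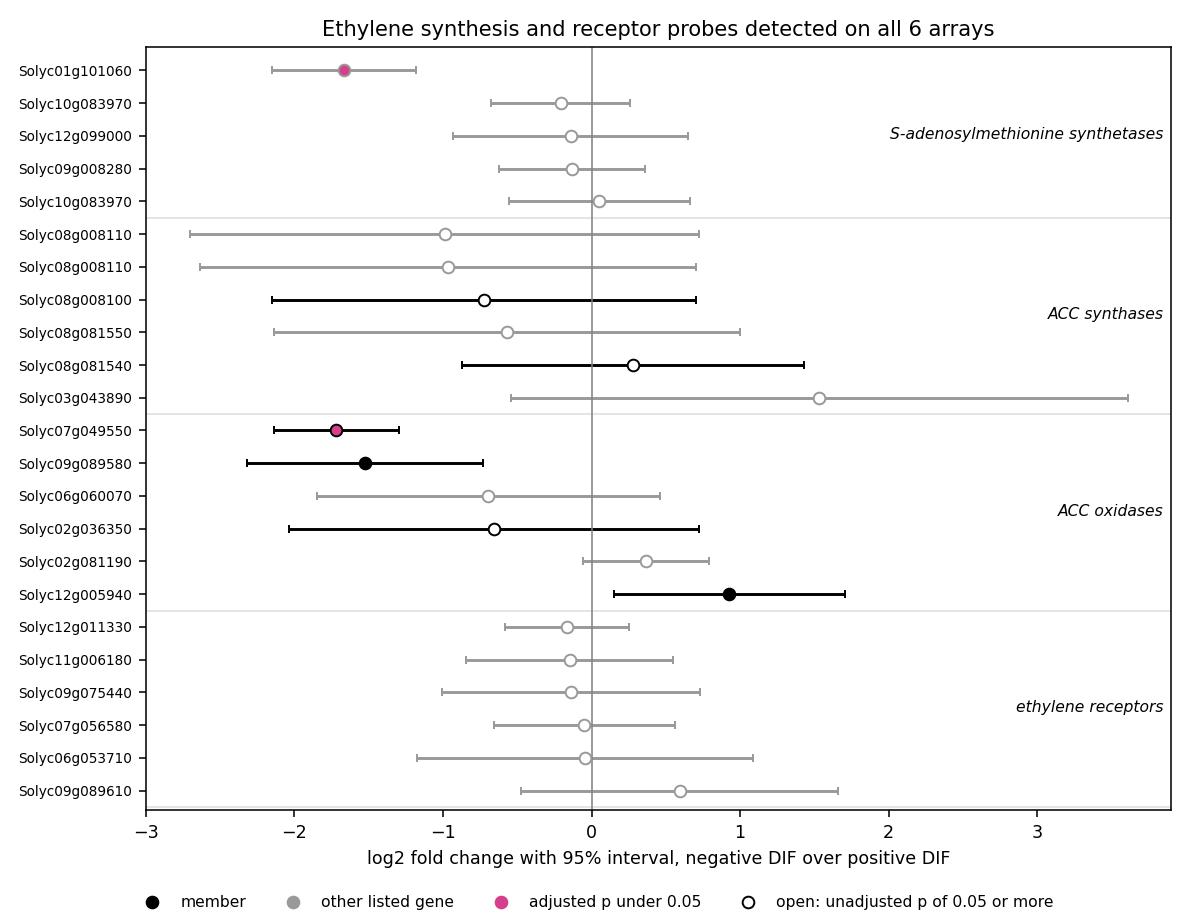
Log2 fold change with its 95% interval from limma, negative DIF over positive DIF, for the probes of S-adenosylmethionine synthetases, ACC synthases, ACC oxidases and ethylene receptors detected on all 6 arrays, members in black and other listed genes in grey. Filled pink points, Solyc01g101060 at -1.67 and Solyc07g049550 at -1.72, passed an adjusted p of 0.05, and open points had an unadjusted p of 0.05 or more.

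The lists used to check the tissue are given beside these values. Of 2 Rubisco small subunit probes 1 was higher at the unadjusted threshold, Solyc02g085950 with a log2 fold change of 1.35 (adjusted p = 0.228 from limma). The summed Rubisco signal was 84.0 to 91.9 times the 75th percentile on the negative DIF arrays, against 44.5 to 92.7 times on the positive DIF arrays. Nearly all of this sum came from the other probe, Solyc03g034220, with processed signals of 69062 to 202642 beside 71.4 to 560 for Solyc02g085950. Solyc03g034220 overlapped between treatments, with a log2 fold change of 0.59 (adjusted p = 0.364 from limma). Of 2 KNOX probes 1 was lower, Solyc04g077210 with -0.95 (adjusted p = 0.0662 from limma). The summed KNOX signal was 6.90 to 11.2 times the 75th percentile on the negative DIF arrays, against 14.1 to 17.2 times on the positive DIF arrays. Both lists had all their probes above background throughout. Of the 5 fruit probes 1 was lower at the unadjusted threshold, Solyc10g006880, with processed signals of 4.06, 74.3 and 102 on the negative DIF arrays, against 169, 348 and 299 on the positive DIF arrays (unadjusted p = 0.043 and adjusted p = 0.246 in limma). The treatments did not overlap, and the lowest value, negative DIF replicate 1, was not well above background. The fitted log2 fold change of -3.42 rests in part on that value. The summed fruit signal was 0.952 to 1.19 times the 75th percentile on the negative DIF arrays, against 0.918 to 1.25 times on the positive DIF arrays. In whole epicotyls, fewer cells of a type and less RNA per cell cannot be told apart. The part of tissue composition in the members' values was not tested.

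For each of the 6 detected members the 3 probes of other genes with the most similar course over the 6 arrays were sought among 25320 probes. For Solyc07g049550 the most similar was Solyc06g062690, described as a nucleosome assembly protein, at r = 0.9993, and 578 probes had an r over 0.95. For Solyc09g089580 the second most similar was Solyc10g084400, described as a glutathione S-transferase, at r = 0.9965, with 385 probes over 0.95. At the other end, 4 probes were over 0.95 for Solyc08g081540. The points share 6 arrays and fall into 2 treatments, so any pair of probes that differs between treatments is alike to that extent, and r is given as a description.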

How the data were processed

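Epicotyl RNA was profiled on one-colour arrays. The authors deposited, for each array, Feature Extraction (10.10.1.1) spot intensity values from which background had been taken off, with no scaling across arrays, and a detection flag for each spot. A second deposited file holds the authors' normalized log2 values of 33614 genes, and its normalization is not given in the sources used here. The heading over its columns swaps the treatments relative to the scanner files and the study's supplement. Each column has the rank order of its scanner array (Spearman correlation 1.0 over 26865 single-probe genes). This shows which array a column came from but cannot decide which treatment name is right. The naming of the scanner files, which the study's supplement shares, was used.

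Control spots and 2 outlier spots on each of 2 arrays were left out, none of a member. Log2 processed signals were set relative to the 75th percentile of their array, with no filter on dim probes, and treatments were compared with limma 3.58.1 in R 4.3.3 (Python 3.11.15 for tables). The number of arrays limits the precision. The fit was run on simulated data with known changes, which were larger than those of the members and had no slide effect. That run checked the fitting code and not the precision of these results. A p-value sets the difference between treatments against the spread between these arrays, which limma moderates with the spread of the other probes fitted.

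All members were named; other pathway genes were given values where an unadjusted p was under 0.05, and Solyc03g043890, Solyc08g008110, Solyc02g081190 and Solyc06g060070 were added after their values were seen. Members and lists were chosen with earlier results of these data known. Alternatives were quantile normalization, the deposited values, normexp (offset 50, on median signals), a dim-probe filter, limma's trend and robust options, blocks for slide (fixed or random) or for replicate number, a Student's t-test, and each array left out. Probe sequences were not used here, so signal shared between near-identical paralogs cannot be told apart.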

Additional observations from a re-analysis of the deposited data

How the results depend on the processing

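One member was lower past the adjusted threshold in the comparison as reported, and 2 were lower on the authors' deposited values, with normexp, with slide as a random block, with dim probes filtered and with limma's trend and robust options, where Solyc09g089580 joined Solyc07g049550. It was 0 with Student's t-test, with slide as a fixed block and with the replicate number as a block, and between 0 and 1 with each array left out. The random block's estimated correlation of arrays on a slide was -0.216, which makes errors smaller. No member was higher past the adjusted threshold in limma or Student's t-test under any setting run. At the unadjusted threshold 1 member was higher as reported, against 0 with quantile normalization, 0 with Student's t-test, 0 with slide as a fixed block, 2 with slide as a random block and 2 on the deposited values, and between 0 and 1 with each array left out. The second of these 2 was an undetected probe. Members lower at the unadjusted threshold stayed at 2, or 3 with Student's t-test, which added an undetected probe. Solyc07g049550 and Solyc09g089580 were under an unadjusted p of 0.05 in all 15 alternatives. Solyc02g036350 alone of the 6 detected members changed sign, with a log2 fold change of -0.998 without positive DIF replicate 3 at one end and 0.0215 without positive DIF replicate 2 at the other.

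Deviations of arrays with equal replicate numbers had correlations of 0.01, 0.04 and 0.22 over 25326 probes. For unequal numbers the correlations ran from -0.35 to 0.32. With 3 arrays per treatment these values cannot decide whether equal numbers shared a batch. With the replicate number as a block, Solyc07g049550 had an adjusted p of 0.0763 from limma and Solyc01g101060 one of 0.0886.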
